A study of Rattus norvegicus with 4 samples.

Results

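H3K27me3 domains of 10 kb or more made up 336 of the 129550 peaks deposited for the sham-operated rat sciatic nerve. They were chosen by their width alone, as all peaks whose end minus start was 10000 bp or more in the rn5 assembly. The nerves came from male Sprague Dawley rats of 42 postnatal days, on the side that received a skin incision and no nerve cut, and were taken 1 day after the nerve of the opposite side was cut. The animals therefore carried an injury elsewhere, and no unoperated animal is among the samples. Of the 4 libraries, 2 were of H3K27me3 chromatin digested with micrococcal nuclease and 2 of matching input. The authors combined the H3K27me3 libraries into a single peak list with 1 score per peak. Counts and scores therefore have no replicate error, no comparison between libraries can be tested, and values below are descriptions of this pooled list.

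H3K27me3 is written by Polycomb repressive complex PRC2 and is read by PRC1, and both complexes keep the regulators of other cell fates silent in differentiated tissue. Most of the mark's peaks are short, whereas broad domains are known from the genes of developmental transcription factors, whose CpG-rich promoters recruit Polycomb. The sciatic nerve holds Schwann cells, fibroblasts, perineurial, vascular and immune cells around axons whose nuclei lie outside the nerve. In such bulk tissue, a mark present in some cells and a weaker mark in all cells cannot be told apart. The width used to choose the domains also moves with the score, so widths and scores are given without tests.

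Several domains covered microRNA genes, whose products are shown first because all loci of 1 family were covered. The miR-9 family, known for its role in neural differentiation, is encoded by the loci Mir9-1, Mir9-2 and Mir9-3, and the start of each of the 3 lay inside a domain together with an opposite-strand partner, Mir3597-1, Mir3597-2 or Mir3597-3. The Mir9 loci encode miR-9a and the partners miR-9b, with the sequences below. For Mir3597-1 only miR-9b-5p had an entry. The other miRNAs shown had their annotated start inside a domain at or near a Hox gene (miR-10a, miR-196c and miR-615) or elsewhere (miR-183 and miR-129). Sequences are from RefSeq (GRCr8), 5′ to 3′, with the seed, bases 2 to 8, in capitals:
rno-miR-9a-5p: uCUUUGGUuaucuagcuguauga
rno-miR-9a-3p: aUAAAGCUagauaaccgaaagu
rno-miR-9b-5p: uUCGGUUAucuagcuuuau
rno-miR-9b-3p: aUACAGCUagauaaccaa
rno-miR-10a-5p: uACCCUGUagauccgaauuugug
rno-miR-196c-5p: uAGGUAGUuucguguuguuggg
rno-miR-615: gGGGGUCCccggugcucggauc
rno-miR-183-5p: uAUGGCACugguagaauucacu
rno-miR-129-5p: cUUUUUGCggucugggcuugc
rno-miR-129-2-3p: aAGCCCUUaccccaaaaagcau
The 3 Mir9 loci share the same mature sequences and so the same seeds. No 2 of the other lines share a seed. Of 15 miRNA genes that a domain named or covered, 14 had an entry in the sequence table. Mir124-2, whose start also lay inside a domain, is given without a sequence.

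The domains at the miR-9 loci measured 12628 to 27594 bp. Here and below, score per kb is the authors' peak score divided by the width in kb. At Mir9-1 the domain (chr2:206965287-206992881) measured 27594 bp with a score of 2115 and 76.7 per kb. At Mir9-2, 2 domains followed each other, of 21595 bp (1606, 74.4 per kb) and 12628 bp (830.9, 65.8 per kb), and the second covered the gene. At Mir9-3 the domain (chr1:142186149-142207704) had 21555 bp, 1432 and 66.4 per kb, and a second one of 22619 bp lay 42317 bp from the start of Mir3597-3 to its centre. The 3 loci thus held 5 domains, all above the median score per kb of 59.4. Mir183, of the sensory organ cluster with Mir182, had 15481 bp at 72.4 per kb, and Mir124-2, a neuronal miRNA, 14529 bp at 65.2 per kb. Mir129-2 (16916 bp, 44.9 per kb) and Mir10a (12557 bp, 44.3 per kb) lay below the median. So did the domain over Mir615 (11606 bp, 34.5 per kb), whereas that over Mir196c (47839 bp, 66.5 per kb) lay above it. Mir17, Mir138-1 and Mir153 were only the nearest starts of domains that did not cover them, at 8631 to 102899 bp from the centre. Those domains had 45.2 to 51.2 per kb, also below the median. Domains named 10 of the 176 miRNA genes that the whole list names, and 279 of its 10639 genes of any kind. Whether these shares differ was not tested.

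Promoter sequences of genes under domains were then compared with all promoters, since their composition had no part in the choice of the domains. Shown are the 3 widest domains with a table entry that contained their gene's transcription start site (TSS), at Sox2, Sim1 and Nkx2-1, and 3 of the 4 promoters of genes in domains with 4 or fewer CG dinucleotides, at Or10c1, Kcnk4 and Nr5a2. Each window runs from 250 bases before to 50 after the RefSeq start, with every CG in capitals:
Sox2 (GRCr8 chr2:119464881-119465180, plus strand): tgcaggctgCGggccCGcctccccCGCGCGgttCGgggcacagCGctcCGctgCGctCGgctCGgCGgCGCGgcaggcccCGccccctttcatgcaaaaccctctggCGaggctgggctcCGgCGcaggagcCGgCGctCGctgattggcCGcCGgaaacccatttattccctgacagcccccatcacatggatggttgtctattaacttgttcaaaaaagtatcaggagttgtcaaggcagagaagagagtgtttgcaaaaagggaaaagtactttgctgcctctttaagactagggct
Sim1 (GRCr8 chr20:55410327-55410626, plus strand): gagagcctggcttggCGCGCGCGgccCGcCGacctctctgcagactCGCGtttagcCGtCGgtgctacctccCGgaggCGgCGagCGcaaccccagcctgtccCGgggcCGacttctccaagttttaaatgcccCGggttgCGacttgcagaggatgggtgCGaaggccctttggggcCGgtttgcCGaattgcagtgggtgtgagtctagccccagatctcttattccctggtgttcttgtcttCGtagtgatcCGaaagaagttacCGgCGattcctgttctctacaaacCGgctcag
Nkx2-1 (GRCr8 chr6:79734818-79735117, minus strand): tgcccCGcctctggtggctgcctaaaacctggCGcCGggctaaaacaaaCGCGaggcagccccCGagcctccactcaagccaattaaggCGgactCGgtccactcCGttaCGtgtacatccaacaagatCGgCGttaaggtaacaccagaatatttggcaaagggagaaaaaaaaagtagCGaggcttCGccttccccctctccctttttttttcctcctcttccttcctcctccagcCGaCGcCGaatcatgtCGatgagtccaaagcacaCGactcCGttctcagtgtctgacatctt
Or10c1 (GRCr8 chr20:1375597-1375896, plus strand): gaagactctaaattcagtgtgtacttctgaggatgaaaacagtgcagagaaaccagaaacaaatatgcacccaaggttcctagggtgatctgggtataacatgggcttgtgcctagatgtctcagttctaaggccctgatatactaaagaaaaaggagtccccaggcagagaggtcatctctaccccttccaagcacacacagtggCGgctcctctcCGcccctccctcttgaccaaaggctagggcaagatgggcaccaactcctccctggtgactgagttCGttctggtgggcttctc
Kcnk4 (GRCr8 chr1:213555812-213556111, minus strand): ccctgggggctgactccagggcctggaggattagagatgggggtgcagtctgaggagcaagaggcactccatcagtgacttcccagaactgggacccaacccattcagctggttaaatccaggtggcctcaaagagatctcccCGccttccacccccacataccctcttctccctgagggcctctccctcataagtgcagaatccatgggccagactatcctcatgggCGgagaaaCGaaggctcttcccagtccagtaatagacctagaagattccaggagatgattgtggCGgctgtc
Nr5a2 (GRCr8 chr13:50984889-50985188, minus strand): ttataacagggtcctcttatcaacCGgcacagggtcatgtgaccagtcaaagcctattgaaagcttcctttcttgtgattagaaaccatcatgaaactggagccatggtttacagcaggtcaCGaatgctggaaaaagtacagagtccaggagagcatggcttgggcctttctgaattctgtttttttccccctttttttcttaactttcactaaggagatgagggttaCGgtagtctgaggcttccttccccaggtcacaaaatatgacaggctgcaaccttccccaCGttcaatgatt
The windows of Sox2 and Sim1 held 23 and 26 CG dinucleotides and that of Nkx2-1 held 20. The other 3, chosen for their few CG, held 3 at the olfactory receptor gene Or10c1 and 4 each at the potassium channel gene Kcnk4 and the nuclear receptor gene Nr5a2. Their difference from the first 3 follows from that choice. The start used in rn5 and the RefSeq start in GRCr8 were not matched, so a window may belong to another start of the same gene.

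Over all 116 protein-coding genes with a TSS in a domain and a promoter of full length in the table, the median was 19 CG per window (quartiles 13.8 and 25), against 11 (3 and 23) in 21842 protein-coding promoters. The lower quartiles lay farther apart than the upper ones. Windows with 20 or more CG made up 47.4% of the first set and 32.5% of all promoters. For genes with a TSS in a peak of 5 to 10 kb the median was 17 (10 and 23, 219 promoters), and for genes whose TSS lay only in peaks under 1 kb it was 7 (3 and 14, 157 promoters). The motif TATAAA, searched on both strands, was present in 13.8% of domain promoters (16) and 13.02% of all, so the TATA letters were about equally frequent.

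**Figure D1:**
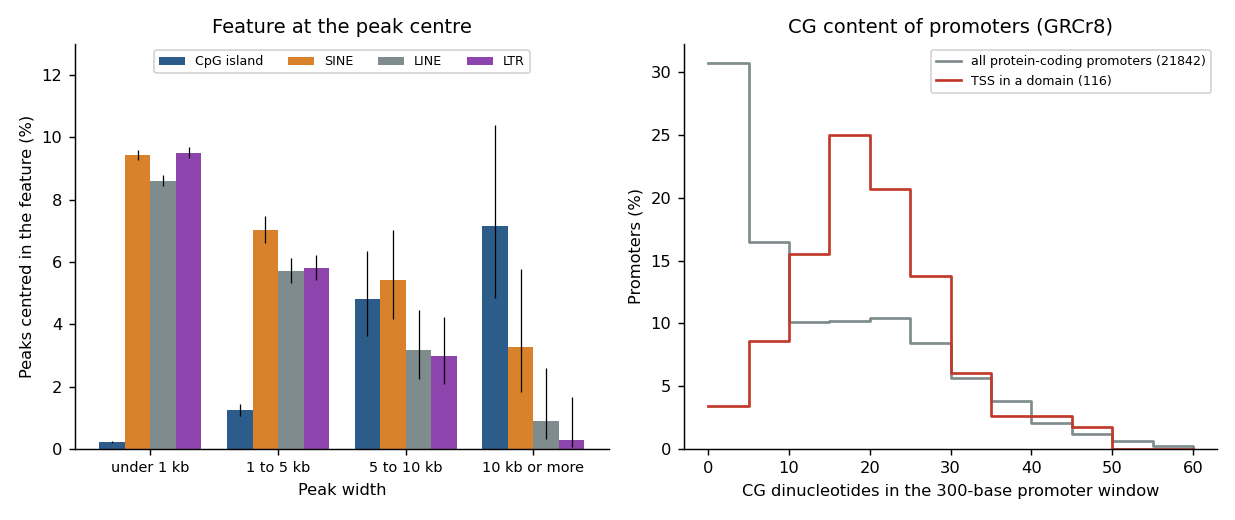
Left, percentage of peaks whose centre lies in a CpG island, SINE, LINE or LTR element, by peak width, with 95% Wilson intervals; CpG islands rise from 0.227% of peaks under 1 kb to 7.14% of domains, while LTR elements go from 9.51% to 0.298%. Right, share of promoters by the number of CG dinucleotides in the 300-base window, in bins of 5, for 116 genes with a TSS in a domain (red) and 21842 protein-coding promoters (grey); few red promoters lie in the lowest bins.

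The authors' annotation names the feature at the centre of each peak, and for domains this was more often a CpG island and less often a repeat than for shorter peaks. Centres in CpG islands made up 7.14% of domains (24 of 336, 95% Wilson interval 4.85 to 10.4%), 4.81% of the 977 peaks of 5 to 10 kb and 0.379% of all peaks. Interspersed repeats went the other way. LTR elements, remnants of retroviruses, held the centre of 1 domain (0.298%) against 9.07% of all peaks, LINE elements that of 3 (0.893% against 8.27%) and SINE elements that of 11 (3.27% against 9.15%). In 85.7% of domains the centre lay in neither a repeat nor a CpG island, against 68.5% of all peaks. Peaks of 5 to 10 kb lay between, with 2.97% in LTR, 3.17% in LINE and 5.42% in SINE elements and 80.3% in neither. The repeat shares thus changed gradually with width. In domains of 20 kb or more the SINE share was 5.45% (3 of 55). These intervals treat peaks as independent.

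By gene structure, 222 of the domains (66.1%, Wilson interval 60.9 to 70.9%) were centred between genes, 75 (22.3%) in introns, 14 in promoters, 12 in exons, 8 at transcription termination sites (TTS), 4 in 3′ untranslated regions and 1 in a 5′ untranslated region. Of the 75 intronic centres 43 were in intron 1. The intergenic share lay between the 57.2% of peaks of 5 to 10 kb and the 74.7% of all peaks. Promoter centres likewise made up 4.17% of domains, 7.57% of peaks of 5 to 10 kb and 1.63% of all peaks. The centre and the coverage of a domain often differed. Of the 222 domains with an intergenic centre, 77 contained the TSS nearest to it, as did 56 of the 75 intronic ones. In all, 162 domains (48.2%) contained their nearest TSS, against 29.5% of peaks of 5 to 10 kb and 1.15% of all peaks. Wider peaks contain a TSS more often by construction.

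Among promoter centres the wide domains included those of Hoxb8 (47839 bp, 66.5 per kb), Fezf2 (20547 bp, 60.6 per kb), a factor of cortical projection neurons, the glycine transporter gene Slc6a5 (18628 bp, 50.9 per kb) and Dmrt2 (16772 bp, 63.8 per kb). Exonic centres were led by Vax1 (18201 bp), Isl1 (17899 bp) and Foxi3 (16436 bp), and termination site centres by the forebrain factor Gsx2 (26548 bp). The domains centred in a 3′ untranslated region were those of Olig3 (20696 bp), Pax1 (16390 bp), Shox2 (16132 bp) and Wnt1 (10765 bp), and the one in a 5′ untranslated region was that of Sox17 (16583 bp), an endoderm and endothelial factor. Intronic centres were led by Sim1 (34161 bp) and Pax6 (32594 bp). The median score per kb was 59.5 for intergenic, 58.5 for intronic, 61.4 for promoter and 58.1 for exonic centres, and it was 68.1 for the 8 termination site and 63.1 for the 4 3′ untranslated region centres.

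Where a domain contained its nearest TSS, it lay on both sides of it by construction. The upstream and downstream reach add up to the width, so these values follow in part from the width minimum of 10 kb. The median reach was 7522 bp upstream of the TSS (quartiles 4143 and 11311 bp) and 8901 bp downstream (5142 and 12483 bp, 162 domains). In 133 of the 162 the domain extended more than 2000 bp on each side, and in 88 its centre lay downstream of the TSS. At Sox2, a factor of neural progenitors and immature Schwann cells, the domain reached 13701 bp upstream and 22567 bp downstream, and at Wt1, a kidney and gonad factor, 16093 and 12419 bp. Zic1 and Zic4, adjacent genes of the dorsal neural tube, had a domain each (30065 and 29248 bp) that were only 433 bp apart.

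The widths and scores were spread unevenly. The median domain width was 13611 bp (quartiles 11531 and 17901 bp), with 114 domains under 12 kb, 136 of at least 15 kb, 55 of at least 20 kb, 12 of at least 30 kb and 3 of at least 40 kb. The 3 widest were those of Hoxb8, of the heart and gut factor Gata4 (47092 bp) and of Otx2 (45085 bp), a forebrain factor. The rest of the 10 widest ran from 36268 to 30973 bp and included Sox2, Sim1, Nkx2-1, Pax6, Fev and LOC102553190. Fev specifies serotonergic neurons, and LOC102553190 is a non-coding RNA gene whose domain (30973 bp, 67.7 per kb) has Lhx1, a gene that no peak names, between its neighbours in GRCr8. The 336 domains covered 5.28 Mb of the 67.7 Mb under all peaks (7.81%) and held 14.8% of the summed score, being 0.259% of peaks. Just inside the limit lay domains nearest to Plcl1 (10006 bp), Otp (10008 bp), Cmklr2 (10043 bp), Robo3 (10044 bp) and Six2 (10075 bp), and just outside it peaks nearest to Atp5mc3 (9995 bp), Nkx2-3 (9984 bp), Hey2 (9983 bp) and Onecut1 (9969 bp), so widths run on without a gap at the limit.

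The score rose faster than the width. Score per kb had a median of 59.4 in domains (quartiles 50.9 and 70.0), 44.2 (37.2 and 52.1) in peaks of 5 to 10 kb and 22.9 (20.6 and 26.3) in all peaks. Within the domains the Spearman correlation of width with score per kb was 0.27 and that of width with score 0.82 (336 domains of the same pooled libraries, as a description). The domains of 20 kb or more had a median of 66.5 per kb. Even the lowest domain exceeded 93.3% of all peaks in score per kb. Yet the densest peaks of the list were short. Of its 100 highest in score per kb, 88 were under 10 kb.

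**Figure D2:**
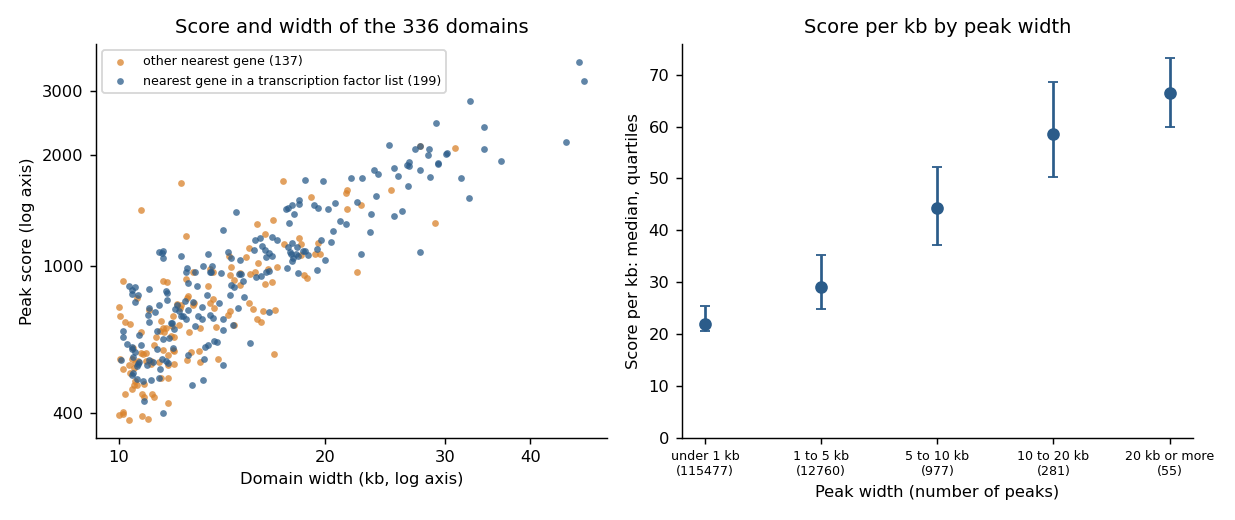
Left, peak score against width in kb for the 336 domains, both axes logarithmic, coloured by whether the nearest gene is in a transcription factor list (199) or not (137); both sets rise together and the other genes are mostly at the narrow end. Right, median and quartiles of score per kb by peak width, rising from 22 in peaks under 1 kb to 66.5 in domains of 20 kb or more.

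Hox and other homeobox genes were among both the highest and the lowest values of score per kb. The 95% intervals given here assume that each score step of 0.206 stands for 1 tag, and they hold only the error of counting. The highest value, 136.4 (133.5 to 139.4), belonged to a domain of 12325 bp (chr9:69848935-69861260) 86114 bp from the start of Cmklr2, named Gpr1 in the file, with 8 genes that no peak names between its neighbours in GRCr8, among them Zdbf2, a known imprinted gene. It was 1 of 3 domains within 44.6 kb there, and the others had 72.3 and 55.6 per kb. Next came RT1-CE12 (10759 bp, 132.2, 129.1 to 135.4), a class I histocompatibility gene with near-identical copies, between which the authors' alignment could divide or stack tags, so its value is uncertain. The following 8 were the domains nearest to Larp7 (98.1), Zfp131 (96.5), Lhx2 (95.3), Hmx2 (94.8), Hoxd13 (94.4), Sp8 (93.9), Hoxc12 (91.3) and Sall3 (90.9). Lhx2, Hmx2, Hoxd13, Sp8, Hoxc12 and Sall3 are transcription factors of forebrain, ear, limb and body axis, and the Larp7 domain (17362 bp, 81159 bp from its start) had Neurog2, a proneural gene that no peak names, between its neighbours.

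At the low end the neurofilament gene Nefl had 34.1 per kb (32.9 to 35.4) over 16865 bp (chr15:46793569-46810434). Neurofilament light protein is a cytoskeletal protein of axons. It was followed upward by Hoxc5 (34.5), the meiotic cohesin gene Smc1b (34.9), Mki67 (35.9, 348218 bp away), Hdhd2 (36.3), Nkx2-8 (36.9), Rasgrf1 (36.9), Meis1 (37.2), Hmga2 (38.1) and Or10c1 (39.2). Meis1, a Hox cofactor, and Hmga2, a chromatin protein of embryonic tissue, had these domains centred in introns 4 and 3. A second domain nearest to Meis1, 145180 bp from its start, had 68.7 per kb.

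Transcription factor genes were the most frequent neighbours. The 336 domains named 279 different genes, of which 160 (57.3%) were in 1 of the 10 transcription factor lists, against 20.1% of 795 genes named by peaks of 5 to 10 kb and 4.41% of 10639 genes named by any peak. The share of domains whose gene was in these lists was 47.4% at 10 to 12 kb, 58.1% at 12 to 15 kb, 60.5% at 15 to 20 kb and 83.6% at 20 kb or more. Domains at listed factors had a median of 14604 bp and 61.5 per kb, and the other 137 had 12532 bp and 55.9 per kb. Of all 638 genes in these lists, 161 (25.2%) were named by a domain or had a TSS in one, against 266 of 23148 protein-coding genes (1.15%).

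The families differed in how many members a domain named or covered at the start. Fewer had a start inside a domain among starts that could be rebuilt from 2 or more peaks. These were 53 of 161 other homeobox, 7 of 39 Hox, 10 of 73 bHLH and 2 of 49 nuclear receptor genes. Homeobox genes outside the Hox clusters had one at 75 of 161 (46.6%, Wilson interval 39.0 to 54.3%), and the widest were those of Otx2, Nkx2-1 and Pax6. The Hox genes, which pattern the body axis, had one at 13 of 39. Any peak names only 24 of these 39, and 15 that no peak names lay between the neighbours of a domain. For the 161 other homeobox genes these counts were 131 and 14. With 1 gene named per peak, the Hox share does not rank Hox below other homeobox genes. The Gata factors had one at 3 of 6 (Gata4, Gata3 with 19912 bp, and the blood factor Gata2 with 17826 bp). The T-box factors had one at 6 of 17, with the heart factors Tbx20 (23789 bp) and Tbx5 (23382 and 20004 bp) at the top. The bHLH family had 16 of 73, led by Sim1, Hand2 (25950 bp) and Olig3. The edge of this Hand2 domain was 65860 bp from the gene's start, and that of the 20004 bp Tbx5 domain 25444 bp. The developmental zinc finger genes had 19 of 91, led by Zic1, Zic4 and Wt1. Forkhead genes had 8 of 46, with the diencephalic Foxb1 (27601 bp) and the endodermal Foxa1 (25643 bp) the widest. Sox genes had 3 of 20, Sox2, Sox17 and the neuronal Sox14 (16175 bp). Nuclear receptors had 5 of 49, headed by Nr2f1 (27603 bp, 39.6 per kb) and Nr2e1 (27543 bp, 77.0 per kb), of nearly equal width but unequal score. The Nr2f1 domain ended 4165.5 bp short of the gene's start. The remaining factors had 13 of 136, led by Fev, Dmrt2 and Tfap2b (16372 bp). Otp, a hypothalamic homeobox gene, is in no list and had 2 domains.

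**Figure D3:**
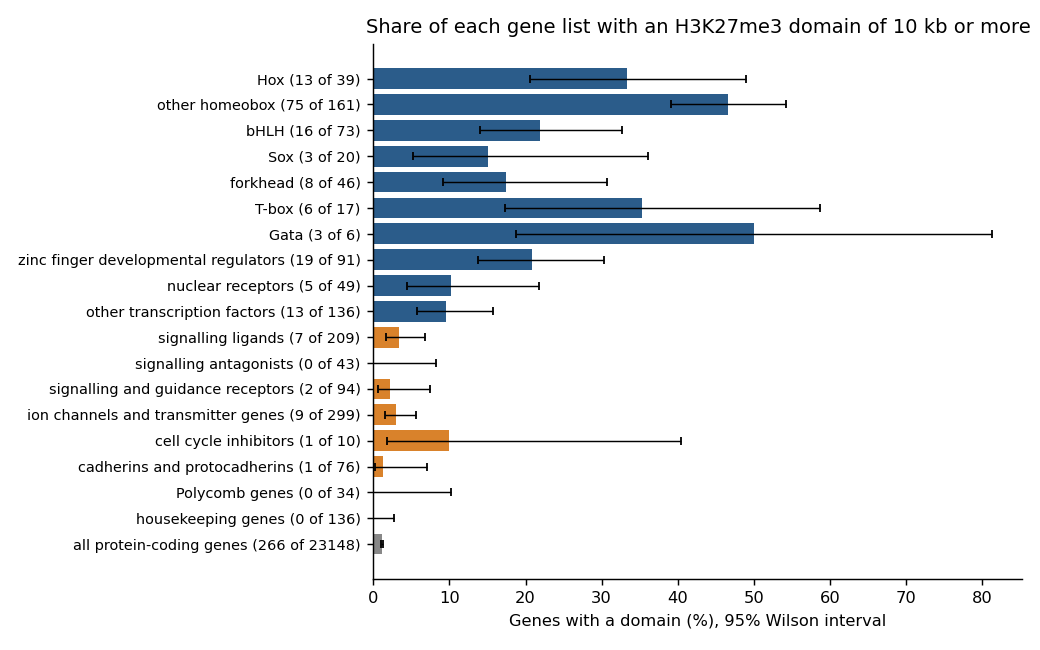
Percentage of the genes of each list that a domain names or whose TSS lies in one, with the count of genes beside each name and 95% Wilson intervals; blue bars are transcription factor lists, orange bars other lists and grey all protein-coding genes. Homeobox genes reach 46.6%, and signalling antagonists, Polycomb genes and housekeeping genes have 0.

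Signalling and effector genes had a domain less often than the transcription factor lists as a whole, by share of members. Among 209 signalling ligands there were 7 (3.35%, Wilson interval 1.63 to 6.75%), a share above the 1.15% of all protein-coding genes. These were Wnt3a (15689 bp, 48.7 per kb), Sema5b (12751 bp), Bmp4 (11786 bp), Shh (10795 bp, 41.8 per kb), Wnt16 (10766 bp), Wnt1 (10765 bp, 61.6 per kb) and Fgf5. The domain nearest to Fgf5 (17026 bp, 58.4 per kb) lay 69001 bp from its start, with Prdm8, a neural zinc finger gene that no peak names, between its neighbours in GRCr8. Of 299 ion channel and transmitter genes 9 had one (3.01%, Wilson interval 1.59 to 5.62%). Among them were the transporters and enzymes of inhibitory neurons Slc6a5, Slc32a1 (15022 bp, 64.0 per kb), Gad1 (14527 bp) and Gad2 (11981 bp, 61.2 per kb). The rest were the vesicular glutamate transporter gene Slc17a6 (12050 bp), and Kcnk4, Kcns1, Kcnk18 and Grin2c (10383 to 12576 bp). The domain named for Kcnk18 had its edge 13695.5 bp from that gene's start. Receptors had 2 of 94, Robo3 with 2 domains (12644 and 10044 bp), a guidance receptor of commissural axons, and Pdgfra (10453 bp, 53.7 per kb). Cell cycle inhibitors had 1 of 10, Cdkn2b (15960 bp, 63.9 per kb), and cadherins and protocadherins 1 of 76, Pcdh8 (13938 bp, 40.2 per kb). None was found at 43 signalling antagonists, 34 Polycomb genes or 136 housekeeping genes, with upper Wilson limits of 8.20%, 10.2% and 2.75% that all lie above the 1.15% of protein-coding genes, so these counts do not set the lists apart. Of these 3 lists the peak list names 40, 21 and 62 genes, and a gene it does not name could lie under a domain named for a neighbour.

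The markers of cell types in and around the nerve had domains at a share near that of all protein-coding genes (1.15%). Of 52 marker genes in 5 lists the fibroblast marker Pdgfra alone had one, centred 1341 bp upstream of its start. None of the 12 Schwann cell, 11 endothelial and mural, 9 leukocyte and mast cell or 10 adipocyte and skeletal muscle markers had one. Their widest peaks were those nearest to Ngfr (6321 bp), Erg (8987 bp, 119059 bp from its start), Cd8a (4212 bp, 71811 bp away) and the muscle gene Acta1 (8107 bp). Shares of these cell types cannot be read from the peak list, and their part in the domain values was not tested.

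The file names only 1 gene per peak, the one with the nearest start. Starts were therefore rebuilt in rn5 from the distances of 2 or more peaks to the same start, which gave 9412 starts, and for each domain the genes between its left and right neighbouring starts were read from the gene order of the newer assembly GRCr8. Of the 137 domains whose gene was in no transcription factor list, 34 (24.8%) had a listed factor that no peak names in that stretch, against 3.41% of 116056 shorter peaks of such genes. The stretches differ in length, and the assemblies may differ in order, so these are candidates by position only. They included En1 beside the 2 domains named for C1ql2, Sox1 beside the 2 of Tubgcp3 (18461 and 10572 bp), Sox21 for Gpr180 (15911 bp, 82.1 per kb), Tlx3 for Npm1 (11760 bp, 76.8 per kb), Pou4f1 for Obi1 (12892 bp), Skor1 for Pias1 (12532 bp), Insm1 for Xrn2 (14734 bp), Emx1 for Spr (12148 bp), Lhx3 for Qsox2 (11272 bp) and Foxf1 for Fendrr, a non-coding RNA gene with domains of 12045 and 10636 bp. En1, Sox1, Sox21, Tlx3, Pou4f1 and Insm1 are known from developing neurons, and Foxf1 from lung and gut mesenchyme. For 233 domains (69.3%) a listed gene was named, covered or a candidate by position. This combined count was not made for shorter peaks, so it does not set the domains apart.

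For 85 domains neither the named gene was in a list nor a listed factor that no peak names lay between the neighbours. A neighbour itself could still be a listed factor, as with Lbx1 beside LOC100911827, Isl1 beside LOC499530 and Zic5 beside Clybl. Both domains of the unlisted homeobox gene Otp are also counted here. The widest of the 85 was nearest to S100a11 (28991 bp, 45.2 per kb, chr2:211073078-211102069), with the epidermal genes Crnn, Flg, Hrnr, Rptn, Tchh and Tchhl1 between its neighbours. Others with 20 kb or more were nearest to Fcgr1a (25033 bp), Mir3597-3, Faim (21515 bp, 73.5 per kb) and Aldh1a2 (22317 bp), which makes retinoic acid. Cyp26a1 (19364 bp, 55.9 per kb), which degrades retinoic acid, also had a domain over its start, with Cyp26c1 between its neighbours. Further domains over their own gene's start were those of Igf2bp1 (17429 bp), an RNA-binding protein of fetal tissue, the heparanase relative Hpse2 (16749 bp), Nxph1 (15930 bp) and Slc10a4 (15798 bp), both of neurons. Domains in regions of duplicated genes were nearest to RT1-T18 (19085 bp), Or7r1 (16501 bp), Or10c1 and Pom121l2, and their tags could come from copies elsewhere.

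The 174 domains without their nearest TSS inside lay at all distances. In 56 the edge was under 5 kb from the TSS, in 27 it was 5 to 20 kb away, in 69 it was 20 to 100 kb away and in 22 at least 100 kb. The farthest edges were 463985 bp from Plcl1, 404568 bp from Msc with Eya1 between the neighbours, 394235 bp from Wac and 342322 bp from Mki67. Next came the first domain of Tubgcp3 (285726 bp), Mtx2 (202332 bp), Meis2 (199294 bp), the second of Tubgcp3 (171859 bp), Xrn2 (169158 bp) and Pias1 (159048 bp). For 5 of these 10, a candidate lay between the neighbours, namely Eya1, Insm1, Skor1 and, for both domains of Tubgcp3, Sox1. Domains without their TSS were a little narrower (median 12426 against 15265 bp) and had nearly the same score per kb (58.5 against 61.2). Wider domains contain a TSS more often by construction, so the difference in width follows in part from this split.

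Many domains had another domain nearby, though their spacing was not compared with that of other peaks. Of the 336, 46 (13.7%) had another domain within 1 kb of an edge, 129 (38.4%) within 100 kb, 168 (50%) within 500 kb and 203 (60.4%) within 1 Mb. There were 24 gaps under 1000 bp, 18 of them between domains of the same nearest gene, down to 236 bp at Sp8, 243 bp at Pax2 and 245 bp at Aldh1a2. A domain count thus counts pieces. Of the 279 genes, 45 had 2 or more domains (102 in all), with 5 at Pax2, 4 each at Six3 and En2 and 3 each at Pax3, Zic5, Fcgr1a, Cmklr2 and Pom121l2.

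**Figure D4:**
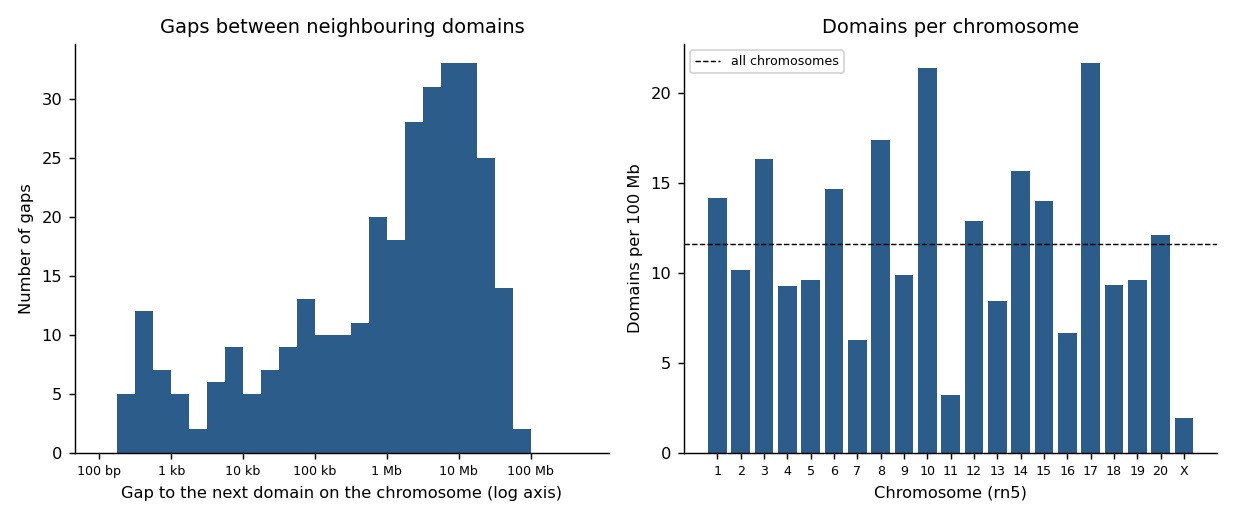
Left, number of gaps between neighbouring domains by gap length on a logarithmic axis, with a small peak under 1 kb and a broad one between 1 and 100 Mb. Right, domains per 100 Mb of the length spanned by peaks on each rn5 chromosome, with the value over all chromosomes (11.6) as a dashed line; chromosomes 10 and 17 are highest (21.4 and 21.6) and X is lowest (1.94).

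Joined at gaps of at most 500 kb, the domains formed 227 groups, of which 168 were single domains, 38 pairs and 21 had 3 or more and held 92 domains together. All 4 Hox clusters were among them. The Hoxb group held 10 domains in 1126 kb, from Igf2bp1 through Hoxb13, Hoxb8, Mir10a, Hoxb4 and Hoxb3 to Skap1, Snx11 and Sp6, and peaks of any width covered 47.7% of that span. The Hoxc group had 4 domains in 123.99 kb (Hoxc12, Hoxc11 and Hoxc5), with 94.8% of the span under peaks. Hoxd10, Hoxd13, Hoxd3, Hoxd1 and Mtx2 shared 386 kb, and Skap2, Hoxa2, Hoxa11-as, Hoxa13 and Evx1 shared 580 kb with 6 domains. Within the Hoxc group the score per kb ran from 34.5 at Hoxc5 to 91.3 at Hoxc12, the lowest and second highest values among the domains named for Hox genes. The domains named 4 of 10 Hoxb, 3 of 9 Hoxc, 4 of 9 Hoxd and 2 of 11 Hoxa genes, and 15 further Hox genes that no peak names lay between the neighbours of a domain.

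Other groups joined developmental genes that lie side by side. Pax2, Tlx1, Lbx1 and LOC100911827 had 8 domains in 637 kb, 5 of them at the kidney and midbrain factor Pax2. Six3 and Six2, of forebrain and kidney, had 6 in 353 kb. En2 and Shh had 5 in 342 kb, of which 4 at En2 had up to 75.8 per kb and the single one at Shh, a morphogen, had the lowest value of the group. Clybl, Zic5 and Zic2 had 5 in 239.8 kb. Groups of 4 were those of Vax1, Kcnk18 and Emx2, of Lhx5, Tbx5 and Tbx3, of Xrn2, Nkx2-2 and Pax1, and of Pom121l2 and Prss16. Groups of 3 included Dmrt3 with Dmrt2, Nkx2-1 with Nkx2-8 and Pax9, Sfmbt2 with Gata3, Zdhhc7 with Fendrr, Tbca with Otp, and Pax3, Fcgr1a and Cmklr2 alone. Pax3 domains took up 60.4% of their 70.1 kb, and those of Cmklr2 80.7% of theirs. Domains in groups of 3 or more had about the same median width and score per kb (13943 bp, 59.2) as the others (13593 bp, 59.5).

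**Figure D5:**
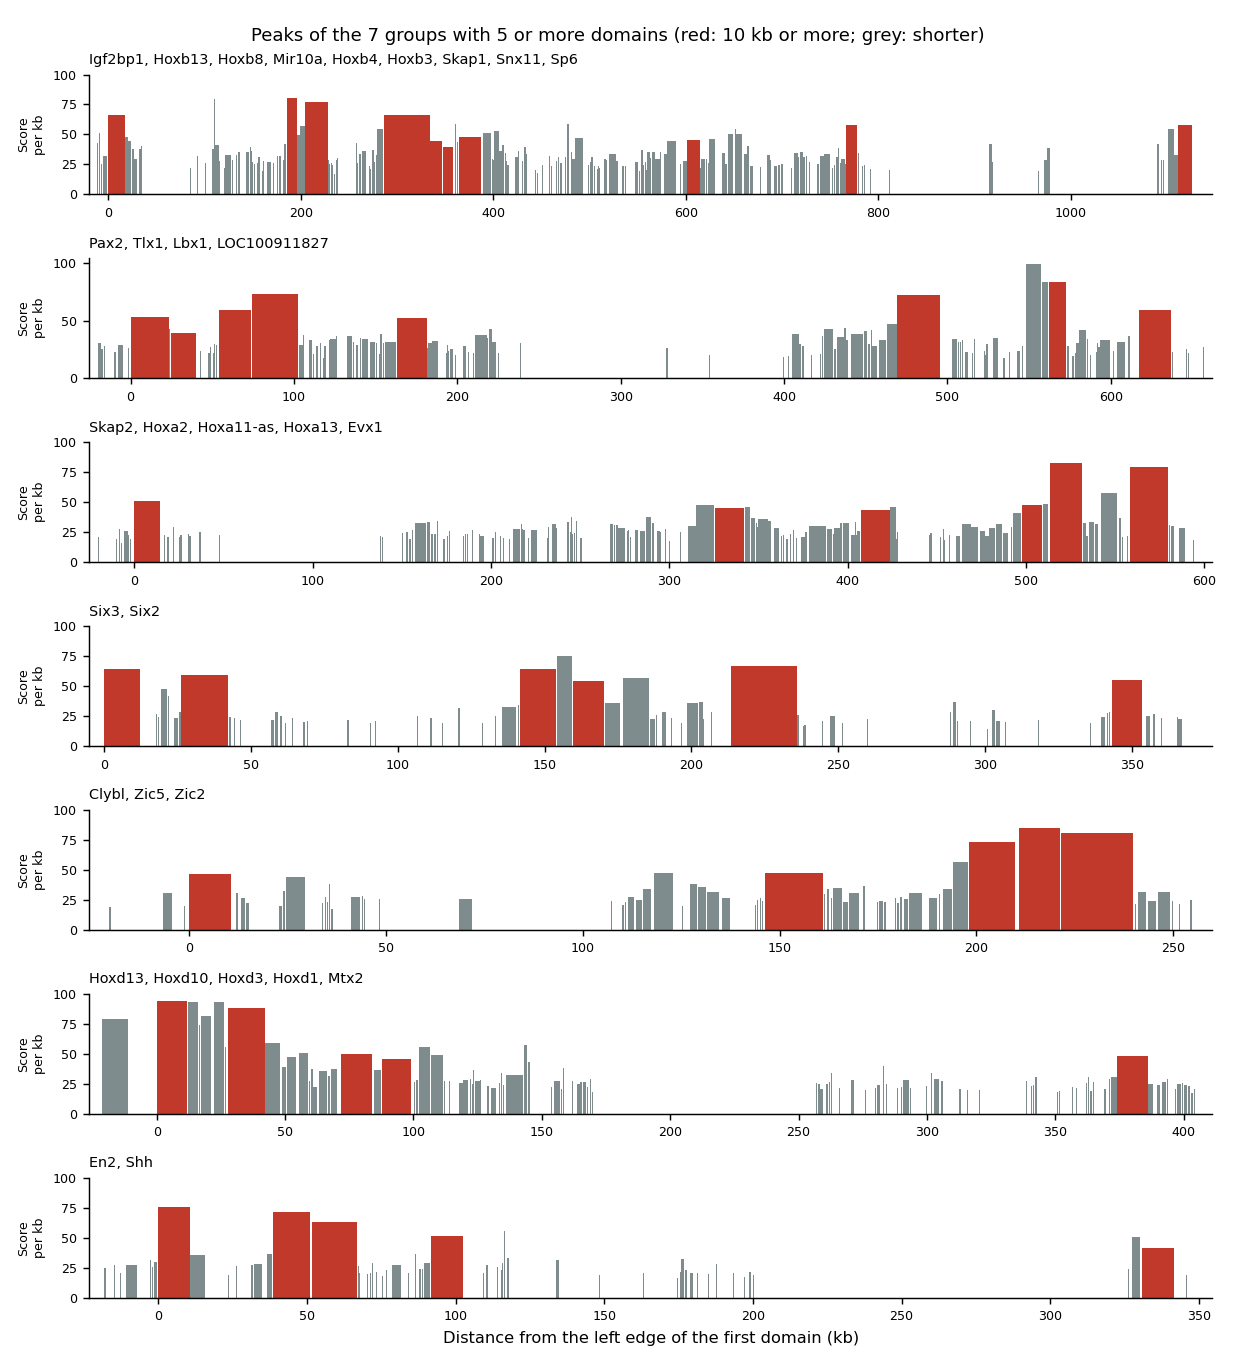
Peaks along the 7 groups with 5 or more domains, as rectangles from start to end with score per kb as height, against the distance in kb from the left edge of the first domain; red marks domains and grey shorter peaks. Shorter peaks fill much of the space between the Hoxb domains, where peaks cover 47.7% of the span, and less between En2 and Shh (27.7%).

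Shorter peaks were dense around the domains. Within 5 kb of a domain edge, peaks under 10 kb covered 48.0% of the bases, from 5 to 10 kb 37.9%, from 10 to 25 kb 22.7%, from 25 to 50 kb 12.8% and from 50 to 100 kb 8.504%. Over the whole length spanned by peaks such peaks covered 2.15%. Around the peaks of 5 to 10 kb, still shorter peaks covered 32.3% of the first 5 kb and 4.94% of the bases from 50 to 100 kb away, against 1.93% overall. The number of domains depends on whether near peaks are joined. Joining peaks less than 1000 bp apart gave 1099 regions of 10 kb or more, of which 296 held a domain. The longest were then Hoxc (177 kb, 40 peaks), Hoxb (130.3 kb, 20 peaks), Fcgr1a (118.9 kb, 34 peaks), Hoxa13 (86.9 kb) and Hoxd10 (76.9 kb), ahead of Gata4 (75.3 kb).

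Chromosomes differed in their density of domains. Over the length spanned by peaks there were 11.6 domains per 100 Mb. Chromosomes 17 (20 domains, 21.6 per 100 Mb) and 10 (24 domains, 21.4 per 100 Mb) had the most for their length and chromosomes 11 (3 domains, 3.21) and X (3 domains, 1.94) the fewest. By number alone chromosomes 1 (41), 3 (30) and 2 (29) led. Counted as groups, chromosome 8 (14.3 per 100 Mb) and chromosome 17 (14.1) were highest, and chromosome 10 had 11.6. All peaks together were also fewest on X, of which males carry 1 copy, at 8.32 per Mb against 30.1 to 81.5 per Mb on the autosomes. The part of copy number in this was not tested. The 3 domains on X included those of Wnt1 and Aqp5 (10195 bp, 69.2 per kb), a water channel gene, which GRCr8 places on chromosome 7. In the other direction, the domain of Or7r1 on chromosome 1 has its gene on X in GRCr8. These 3 were the domains, of 334 with a matched gene, whose gene changed chromosome.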

How the data were processed

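H3K27me3 chromatin and input of sham-operated sciatic nerve were sequenced in 2 libraries each. Per the submitters' processing notes, CASAVA 1.8.2, Bowtie and HOMER were used, and per the file headers the combined H3K27me3 sham peaks were annotated with HOMER against rn5. Other versions, the caller's parameters and how the input libraries were used: not given in the sources used here. Each peak carries a score, a number without a stated scale, deposited by the authors, along with coordinates, widths and distances in bp. Scores under 10 were whole multiples of 0.206 (tolerance 0.0055) in 100% of 97601 peaks. The depth of each library is unknown.

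Computed here were end minus start (equal to the deposited width in 100% of peaks), score per kb, gaps and groups of domains, shares with 95% Wilson intervals, and starts rebuilt where the distances of 2 or more peaks agreed within 2 bp on 1 strand (9412 of 10910 starts named). Gene order and symbols came from RefSeq GRCr8, which matched 334 of 336 domains. The geometry was tested on simulated data. Python 3.11.15, pandas 2.3.3 and scipy 1.17.1 were used. The members, the 18 gene lists, given as symbol patterns, and the 5 marker lists were chosen with earlier results of these data known. Named domains are the 10 widest, the 10 highest and lowest in score per kb, the widest per annotation class, list and unlisted gene, those of groups of 3 or more, the farthest from a start, those at non-coding genes and those at the width limit. Candidate genes between neighbours and other examples were chosen after their values were seen. No test between groups was possible, and the transected side was not used here. A few items that the naming rule covers are not reported here.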

Additional observations from a re-analysis of the deposited data

How the results depend on the processing

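No paired analysis was possible because the file holds 1 pooled value per peak, and for the same reason no library could be left out. With a width minimum of 8000 bp there were 509 domains with 10.1% of covered bases, 18.5% of the summed score, 56.6 per kb, 49.6% of genes in transcription factor lists and 66.8% with a neighbour within 1 Mb. With 15000 bp the values were 136, 4.26%, 8.40%, 63.8, 68.8% and 39.7%, with 125 genes and 61.8% containing their nearest TSS. Merging peaks less than 1000 bp apart (gaps then count as covered) gave 1099 domains at 914 genes, 20.8% of bases, 35.4% of score, 33.3 per kb, 28.1% centred in introns, 25.1% of genes in those lists and 73.6% with a neighbour. Merging at 5000 bp gave 5065 domains at 3481 genes, 62.1%, 71.2%, 8.67 per kb, 9.11% of genes in those lists, 96.2% with a neighbour and 31.4% containing their TSS. With the top 25% of scores alone the domains held 10.8% of bases and 18.4% of the score. This filter could remove no domain, as the lowest domain score was 382.8 and the upper quartile of all peaks 9.9. The TSS was within 1000 bp of the domain in 57.4% and within 5000 bp in 64.9%. Neighbours lay within 100 kb for 38.4%, 500 kb for 50% and 2000 kb for 70.5%. The other 23 of 60 recomputed values stayed within exact binomial intervals or within 1.5 times the count. They include the values that the score filter could not change, which say nothing about stability. The intergenic share after merging at 1000 bp (60.8%), also among them, lies just under the Wilson bound of 60.9% (60.78 against 60.85%).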
